A study of Homo sapiens with 3 samples.

Results

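Cells charge each transfer RNA with its amino acid by means of aminoacyl-tRNA synthetases, and they take up the amino acids through carriers of the solute carrier (SLC) families. When amino acids run short or unfolded protein builds up in the endoplasmic reticulum, kinases of the integrated stress response phosphorylate the initiation factor eIF2, general translation slows, and more of the transcription factor ATF4 is made. ATF4, paired with C/EBP proteins or with CHOP, is known to raise many cytosolic synthetases, amino acid carriers and enzymes of serine and folate metabolism. The 32 members described here are genes of these kinds, with 19 subunits or enzymes of the cytosolic synthetases and 10 amino acid transporters. The other 3 are enzymes that make serine or its folate-bound carbon units. Not all are known as ATF4 targets: of the 19 synthetases, 13 are commonly named so. The members were taken by name from a list of genes, with no threshold on their values but with earlier results of these data known. Each was read on its brightest probe set with 1 gene symbol. All 32 were found among 18132 genes on the array, and 31 of them were above a filter on dim genes that 12232 genes passed.

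The 3 arrays held RNA from KYSE150, an oesophageal squamous carcinoma cell line of human origin, 48 h after transfection. The cells had received pcDNA3.1 with LOXL2 delta72, pcDNA3.1 with LOXL2 WT, or vector as the control, and all were grown in RPMI medium with fetal calf serum. LOXL2 is a secreted copper-dependent lysyl oxidase, and the labels name the delta72 form without describing it. Each condition was measured on 1 array, so no difference given here has a replicate check, no test could be made, and "higher" and "lower" are statements about these arrays. The share of cells that took up a plasmid is not given in the sources used here, and a change in few cells cannot be told apart from a small change in all of them.

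LOXL2 itself read log2 14.06 with delta72, 14.05 with WT and 7.46 in the control. Keratinocyte and epithelial markers were present, with 8 of 8 measured squamous markers above the filter, among them KRT5 at 11.27, 11.52 and 11.62 on the same 3 arrays. KRT14 was lower on both LOXL2 arrays, at 7.10 and 7.08 against 7.76 in the control, and its part in the results below was not tested. Of the markers of other cell types, 1 of 6 fibroblast, 2 of 5 leukocyte and 3 of 4 endothelial genes were above the filter value of log2 5.27, none above 6.23 on any array. The defining genes LUM (3.57, 3.72 and 3.77) and PTPRC (3.08, 3.05 and 2.83) were below it. The 3′ minus the 5′ signal of the GAPDH control transcript was 0.0020 with delta72, 0.0030 with WT and -0.0060 in the control on the log2 scale. For the ACTB control transcript the same difference was 1.32, 1.46 and 1.26, so it was largest on the WT array, and its part in the results was not tested.

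ATF4 and its partners bind a composite C/EBP-ATF element, whose core can be written TGATGNAA, with N for any base. The promoter windows of the members were searched for it on both strands. The element was not itself used to choose the members, but many of them are known as ATF4 targets. A high share among them could thus be foreseen from the choice and is not an independent finding. Windows come from RefSeq (GRCh38.p14) and run from 250 bases before to 50 bases after an annotated start. Windows were at hand for 26 of the 32 members, and 12 of these 26 (46.2%) held the element in at least 1 window. Of 9954 genes above the filter with a window, 289 (2.90%) held it, and over all 35116 windows the share was 3.62%. Several windows give a gene more chances: among members with 1 window 5 of 17 (29.4%) held it, against 1.72% of genes above the filter with 1 window, and among members with several windows 7 of 9 (77.8%), against 5.88%. LARS1, VARS1, YARS1, SLC7A2, SHMT2 and PSPH had no window in the table. The sites are printed because they let the letters around the element be compared, each read 5′ to 3′ on the gene's strand with the element in capitals, which appears as its reverse complement where it lies on the opposite strand. The sites shown were chosen after the search, since no member at a log2 difference of 0.32 or more held the element.
AARS1, chr16:70289675-70289704, minus strand: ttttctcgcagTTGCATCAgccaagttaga
CARS1, chr11:3057407-3057436, minus strand: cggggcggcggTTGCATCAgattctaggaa
GARS1, chr7:30594834-30594863, plus strand: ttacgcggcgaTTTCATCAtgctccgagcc
IARS1, chr9:92293692-92293721, minus strand: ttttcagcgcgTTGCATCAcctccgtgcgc
MARS1, chr12:57488053-57488082, plus strand: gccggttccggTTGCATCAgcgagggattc
NARS1, chr18:57621804-57621833, minus strand: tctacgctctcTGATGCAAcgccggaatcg
TARS1, chr5:33440956-33440985, plus strand: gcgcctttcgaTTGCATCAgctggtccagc
SLC1A4, chr2:64989381-64989410, plus strand: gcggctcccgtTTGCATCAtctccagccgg
SLC1A5, chr19:46784893-46784922, minus strand: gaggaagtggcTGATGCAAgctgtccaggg
SLC3A2, chr11:62881725-62881748, plus strand: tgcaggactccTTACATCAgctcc
SLC7A1, chr13:29595663-29595692, minus strand: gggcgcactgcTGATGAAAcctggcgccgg
SLC38A1, chr12:46266502-46266531, minus strand: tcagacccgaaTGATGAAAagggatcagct

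The search fixed all but 1 base of each site. Read on the strand that spells TGATG, 8 of the 12 sites were TGATGCAA, 3 were TGATGAAA (GARS1, SLC7A1 and SLC38A1) and SLC3A2 had TGATGTAA. TGATGCAA alone was present in 30.8% of the members with a window, against 0.814% of the genes above the filter. The element lay on the opposite strand in 8 members and on the gene's strand in 4. In 10 of the 12 its first base was within 40 bases of an annotated start, and the exceptions were AARS1, at position -187, and SLC1A5, at position -97. In 6 members that start is the gene's first annotated one, and in GARS1, TARS1, SLC1A4, SLC1A5, SLC3A2 and SLC38A1 it is another. A match is a run of letters and not a measured binding site.

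**Figure D1:**
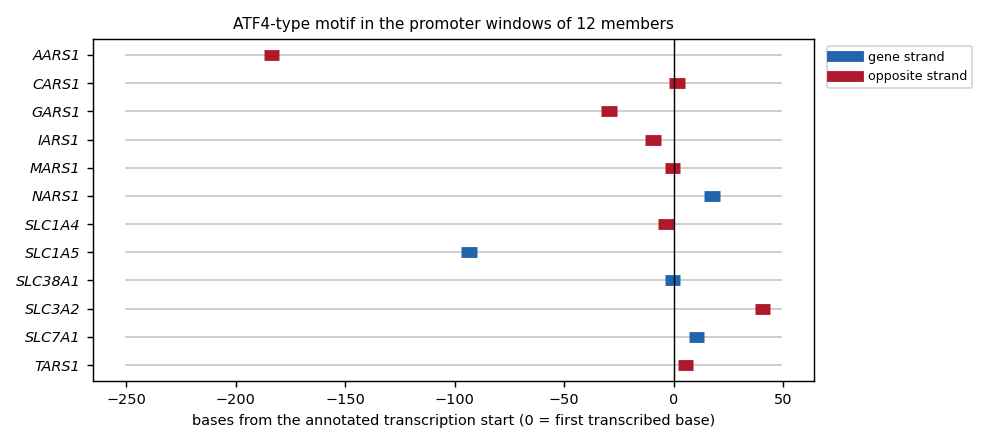
Position of the element TGATGNAA in the promoter windows of the 12 members that hold it, in bases from the annotated start (0 is the first transcribed base), with grey lines for the window from 250 bases before to 50 after. Blue marks an element on the gene's strand and red one on the opposite strand, and 10 of 12 cluster around the start.

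The members' RNA differed little between the arrays. With LOXL2 delta72, 18 of the 31 members above the filter were higher than in the control (58.1%, against 49.7% of all genes above the filter), and their median difference was 0.01 on the log2 scale, against 0.00 for all genes. With LOXL2 WT, 16 of 31 were higher than in the control (51.6%, against 48.0% of all genes), with a median of 0.01 against -0.0094. Between the forms, 20 of 31 were higher with delta72 than with WT (64.5%, against 50.4%), with a median of 0.0048 against 0.0013. The counts of higher members move with the zero point of the arrays. With the arrays shifted to a common median level over the genes above the filter, 11 of 31 members were higher with delta72 and 12 of 31 with WT, but that shift moves all genes alike: the members' median differences became -0.02 and -0.0303, against -0.0327 and -0.0507 for all genes. Quantile normalization left 17 of 31 members higher with delta72 and 14 of 31 with WT, and a lowess correction left 16 and 15 of 31. The comparisons with the control share the same control array.

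Few members reached even the smaller of the sizes counted, a log2 difference of 0.32. With delta72, 3 of 31 did (9.68%, against 12.2% of all genes in either direction): WARS1 was higher (1 of 31, against 7.52% of all genes) and EPRS1 and SLC7A5 were lower (2 of 31, against 4.72%). With WT, SLC7A5 was lower (1 of 31, against 7.12% of all genes) and 0 of 31 were higher (against 9.92%), so that 1 of 31 was past the mark in either direction, against 17.0% of all genes. Between the forms 0 of 31 were higher with delta72 (against 1.55%) and 0 of 31 lower (against 0.981%), against 2.53% of all genes in either direction. WARS1 was just inside the mark with delta72 (0.3223 against 0.3219), and the nearest outside it were HARS1 with WT at 0.3062, SLC1A5 with WT at -0.3069 and SLC38A2 with delta72 at -0.3028. No member reached 1.5-fold in any of the 3 comparisons, a size that 1.78%, 2.71% and 0.221% of all genes reached with delta72, with WT and between the forms. Counted in either direction, the shares of members at 0.32 were below those of all genes in each comparison, by few genes each, while the share lower with delta72 was not.

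The spread of the members was also narrower than that of all genes above the filter, which include dimmer ones. All 31 members above the filter also passed a filter at the 60th percentile, at log2 6.65. The part of brightness in the SDs and shares given was not tested. The SD of the log2 differences over the members was 0.18 with delta72 and 0.18 with WT, against 0.23 and 0.26 over all genes, where LOXL2 itself is included. Between the forms the SD was 0.06 over the members, against 0.13 over all genes. All members above the filter lay between -0.12 (RARS1) and 0.14 (CARS1) in that comparison. Probe sets that hold no gene and measure background differed by up to 0.17 between delta72 and control, 0.29 between WT and control and 0.15 between the forms. Beyond these limits lay 11 of 31 members with delta72 (35.5%, against 36.0% of all genes), 5 of 31 with WT (16.1%, against 21.7%) and 0 of 31 between the forms (against 20.6%).

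**Figure D2:**
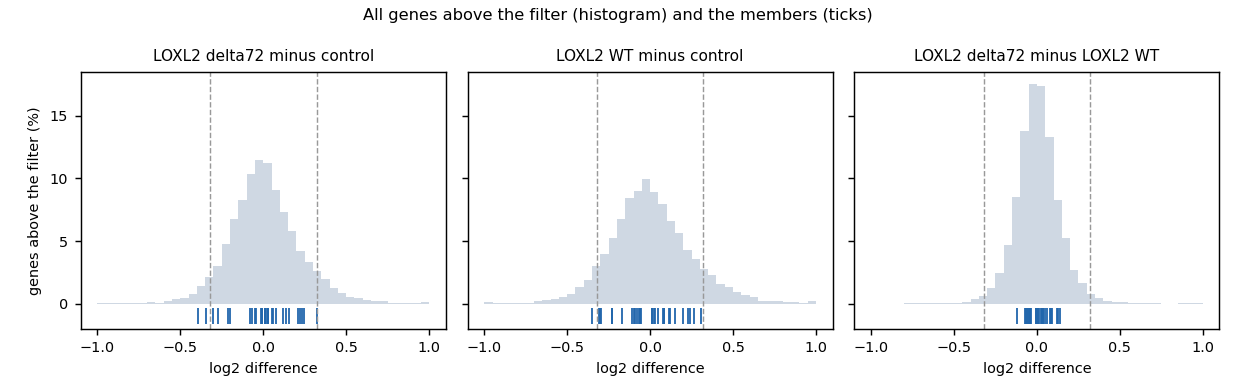
Share of the genes above the filter (vertical axis, percent) by log2 difference in each of the 3 comparisons, with each of the 31 members as a blue tick under the axis and dashed lines at a size of 0.32. Genes beyond 1 in size are stacked in the outermost bars. The members lie inside the bulk of the histogram, between -0.40 and 0.32 in the comparisons with the control and between -0.12 and 0.14 between the forms.

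Among the cytosolic synthetases, WARS1, the tryptophanyl-tRNA synthetase, which interferon gamma is also known to induce, was the highest member with delta72. It read 9.43 with delta72, 9.35 with WT and 9.11 in the control. Its difference from the control was 0.32 with delta72 (SD 0.04 over 3 probe sets) and 0.24 with WT (SD 0.01). All 3 of its probe sets above the filter were higher on both LOXL2 arrays, and the dimmer ones differed by up to 0.39 with delta72. In a list of interferon response genes, 1 of 7 genes above the filter was higher with delta72 than in the control (14.3%, against 49.7% of all genes). With WT 4 of 7 were higher (57.1%, against 48.0% of all genes). The list had medians of -0.15 and 0.06. Within it ISG15 was at 0.37 and 0.18, and IRF1, a transcription factor of the interferon response, at -0.26 and -0.21.

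HARS1, LARS1, KARS1 and the subunits of the phenylalanyl-tRNA synthetase were also higher on both LOXL2 arrays, each by over 0.1. HARS1, which charges histidine tRNA, read 10.60 with delta72, 10.66 with WT and 10.35 in the control. That is 0.25 and 0.31 above the control, with all 3 probe sets higher in each case. FARSB, the beta subunit, read 10.58, 10.62 and 10.36 on the same arrays. Its differences of 0.22 and 0.26 were alike over 4 probe sets (SD 0.03 and 0.02). FARSA, the alpha subunit, read 9.12 on both LOXL2 arrays and 8.97 in the control on its single probe set, 0.15 higher with either form. So both subunits of this enzyme were on the same side. LARS1, which charges leucine tRNA and also takes part in leucine sensing, read 11.03, 11.03 and 10.80, or 0.23 higher with either form. Its dimmest probe set disagreed with delta72, at -0.02. KARS1, the lysyl-tRNA synthetase, was 0.12 higher with both forms on its brightest probe set and up to 0.17 on the other.

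EPRS1 and QARS1 were the synthetases lowest against the control. EPRS1, a fusion of the glutamyl- and prolyl-tRNA synthetases, read 10.66 with delta72, 10.71 with WT and 11.01 in the control. It differed from the control by -0.35 with delta72 (1.27-fold lower, SD 0.07 over 2 probe sets) and by -0.30 with WT (1.23-fold lower, SD 0.10), and both probe sets were lower in each case. QARS1, which charges glutamine tRNA, read 9.77 with delta72, 9.69 with WT and 9.99 in the control. It differed from the control by -0.21 and -0.29, again with both probe sets lower. EPRS1 and QARS1 sit with LARS1, KARS1, IARS1, MARS1 and RARS1 in the multisynthetase complex, a particle that holds these enzymes together. Its 7 measured members lay on both sides, 3 higher with delta72 and 4 with WT, with medians of -0.0064 and 0.01. These shares are 42.9% and 57.1%, against 49.7% and 48.0% of all genes above the filter.

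AARS1, the alanyl-tRNA synthetase, was higher with delta72 than with WT and higher with WT than in the control, at 9.75, 9.63 and 9.54. Its differences from the control were 0.21 with delta72 and 0.08 with WT, and its 2 probe sets were close to each other (SD 0.02 and 0.0033). AARS1 carries the element TGATGCAA farthest from its start among the 12 members shown above. CARS1, which charges cysteine tRNA, read 9.91 with delta72, 9.78 with WT and 9.89 in the control. It was the highest member between the forms, at 0.14, but a further probe set gave 0.0043. SARS1 (10.78, 10.68 and 10.76) and YARS1 (10.26, 10.17 and 10.23), which charge serine and tyrosine tRNA, were each 0.09 higher with delta72 than with WT, on 1 probe set each. RARS1, for arginine tRNA, was the lowest between the forms, at 11.63 with delta72 and 11.75 with WT, against 11.64 in the control.

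The other synthetases were nearly level. NARS1, for asparagine tRNA, read 12.04 on both LOXL2 arrays and 12.03 in the control. IARS1, for isoleucine tRNA, read 11.63, 11.63 and 11.62, and TARS1, for threonine tRNA, 11.03, 11.03 and 11.01. These 3 genes hold the element within 40 bases of a start and differed from the control by 0.03 or less on their brightest probe sets. The dimmer probe sets of TARS1 were higher, by up to 0.15 with delta72 and 0.22 with WT, while those of IARS1 were lower, at down to -0.08 and -0.03. The dimmest probe set of NARS1 was at 0.07 with delta72 and 0.31 with WT. GARS1, for glycine tRNA, read 11.72, 11.66 and 11.72. VARS1, for valine tRNA, was at 0.08 with delta72 and 0.05 with WT, but its probe sets ran from -0.17 to 0.36 with delta72. MARS1, for methionine tRNA, was at -0.07 and -0.06, and its probe sets ran from -0.49 to 0.04 with delta72, the lowest value coming from its dimmest one.

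**Figure D3:**
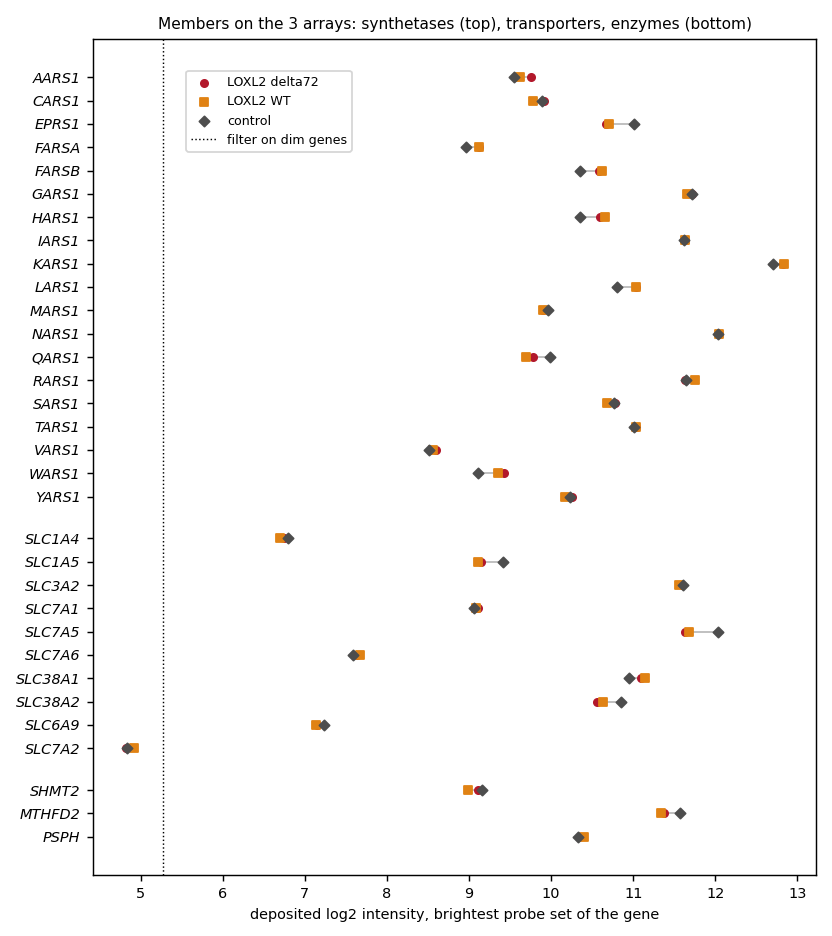
Deposited log2 intensity of the brightest probe set of each of the 32 members (horizontal axis) with LOXL2 delta72 (circles), LOXL2 WT (squares) and in the control (diamonds), 1 array each, with synthetases at the top, then transporters, then enzymes. The dotted line is the filter value of 5.27. Levels of different genes come from different probes and are not comparable, and within a gene the symbols nearly coincide except in EPRS1, HARS1, FARSB, WARS1, SLC1A5, SLC7A5, SLC38A2 and a few others.

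By structural class, the 9 class II synthetases (AARS1, FARSA, FARSB, GARS1, HARS1, KARS1, NARS1, SARS1 and TARS1) had a median of 0.12 with delta72 and 0.08 with WT against the control. With delta72, 8 of the 9 were higher and GARS1 was at -0.0049. With WT, 7 of the 9 were higher, GARS1 was at -0.07 and SARS1 at -0.08. The 9 class I enzymes had medians of 0.03 and 0.01, with 6 higher with delta72 and 5 with WT. EPRS1 spans both classes and was counted in neither. The 13 synthetases commonly named as ATF4 targets had medians of 0.03 and 0.01, with 10 higher with delta72 and 7 with WT. Between the forms 11 of these 13 were higher with delta72 than with WT, with a median of 0.03. Among the 11, IARS1 (0.0004), TARS1 (0.0013), NARS1 (0.0028) and LARS1 (0.0048) were near 0. By the median over probe sets above the filter, IARS1, TARS1 and NARS1 were below 0, at -0.041, -0.048 and -0.0727. The 2 lower ones, EPRS1 and MARS1, stayed lower by that median. MARS1 was also near 0, at -0.007. It turned above 0, at up to 0.0036, under the common median shift, quantile normalization and the lowess correction. Of all genes above the filter, 49.7% were higher with delta72 than in the control, 48.0% with WT than in the control and 50.4% with delta72 than with WT.

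Among the transporters, SLC7A5, SLC1A5 and SLC38A2 were lowest against the control. SLC7A5 is LAT1, the light chain that exchanges leucine and other large neutral amino acids for glutamine. It read 11.63 with delta72, 11.68 with WT and 12.03 in the control. It differed from the control by -0.40 with delta72 (1.32-fold lower) and by -0.35 with WT (1.27-fold lower), which made it the lowest member in both comparisons. Its second probe set gave -0.50 and -0.45 (SD 0.07 in each comparison). SLC7A5 has partial copies elsewhere in the genome, and the origin of the signal within this family is uncertain. SLC3A2, the heavy chain that carries LAT1 to the membrane, read 11.59, 11.55 and 11.61. It was at -0.01 and -0.05 on its brightest probe set, and all 7 of its probe sets were lower with both forms, at down to -0.18 and -0.13. The light chain thus differed more than its heavy chain on these arrays.

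SLC1A5, the glutamine and neutral amino acid carrier ASCT2, read 9.14 with delta72, 9.11 with WT and 9.41 in the control. All 3 probe sets were lower in both comparisons, from -0.27 to -0.51 with delta72 and from -0.31 to -0.61 with WT. The widest differences came from the dimmest probe set, which read 7.93 with delta72, 7.83 with WT and 8.44 in the control. SLC38A2, the SNAT2 carrier that is known to be induced by amino acid lack, read 10.55, 10.63 and 10.86 on its brightest probe set. It differed from the control by -0.30 with delta72 and by -0.23 with WT. Its 2 dim probe sets, below log2 6 on every array, gave -0.0075 and -0.10 with delta72 and -0.28 and -0.39 with WT, so the order of the forms turned with the probe set.

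SLC38A1, the related carrier SNAT1, was on the other side, at 11.09 with delta72, 11.15 with WT and 10.95 in the control. It was at 0.14 and 0.20, and all 4 of its probe sets above the filter were higher with WT, but 2 of the 4 were lower with delta72. A probe set at 8.60 with delta72, 8.89 with WT and 8.60 in the control gave the widest difference between the forms of any SLC38A1 probe set, at -0.30. SLC7A6, a light chain for exchange of basic and neutral amino acids, read 7.64, 7.67 and 7.59 on its brightest probe set, or 0.05 and 0.09. Its dimmer probe sets were both higher, one reading 6.48 with delta72, 6.60 with WT and 6.09 in the control (0.39 and 0.51). The remaining carriers above the filter had small differences from the control. SLC7A1, the main importer of arginine and lysine, was at 0.06 and 0.03. SLC1A4, a serine and alanine carrier, was at -0.05 and -0.09, and SLC6A9, the glycine carrier, at -0.08 and -0.09. The probe sets of SLC1A4 and SLC6A9 ran to both sides of 0. SLC7A2, an inducible arginine carrier, was below the filter on all 3 arrays, at 4.82, 4.91 and 4.84.

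MTHFD2, the mitochondrial folate enzyme, was the only one of the 3 enzymes with every probe set lower than the control with both forms. Its brightest probe set read 11.37 with delta72, 11.34 with WT and 11.57 in the control, or -0.20 and -0.23. The 5 probe sets ran from -0.31 to -0.19 with delta72 and from -0.37 to -0.23 with WT (SD 0.05 and 0.06). SHMT2, which splits serine to glycine in mitochondria, read 9.11, 8.99 and 9.16. It was at -0.05 with delta72 and -0.17 with WT, with all 4 probe sets higher with delta72 than with WT (0.12 on the brightest). PSPH, the last enzyme of serine synthesis, read 10.34, 10.41 and 10.33 on its brightest probe set, while a second read 10.02, 9.81 and 9.98. With WT its 3 probe sets ran from -0.32 to 0.08, and between the forms from -0.07 to 0.35. PSPH has a near-identical pseudogene, so its signal cannot be assigned to 1 locus.

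**Figure D4:**
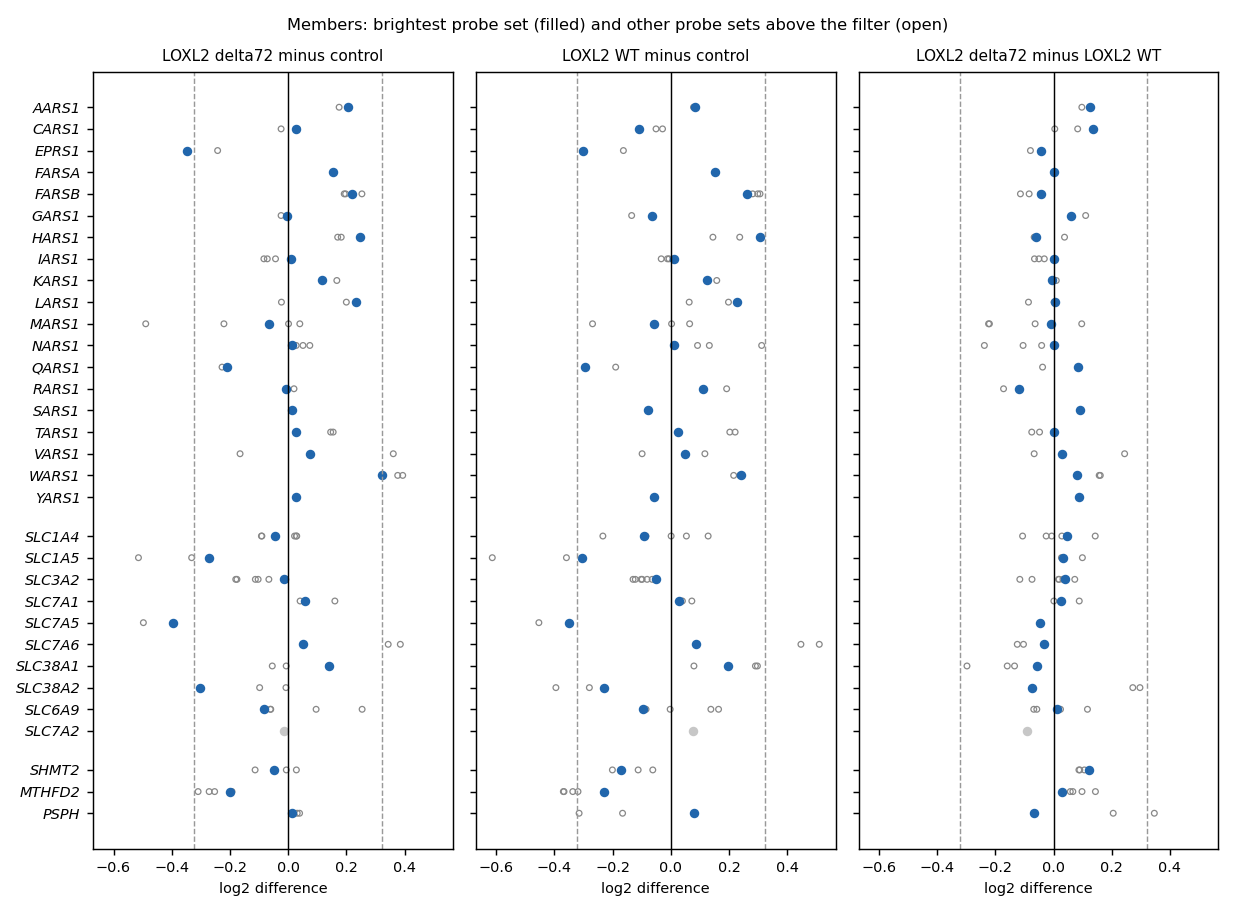
Log2 difference of each member (horizontal axis) in the 3 comparisons, with the brightest probe set filled, the other probe sets above the filter open, SLC7A2 in grey because it was below the filter, and dashed lines at a size of 0.32. EPRS1, SLC7A5, SLC1A5 and MTHFD2 lie left of 0 on every probe set in the comparisons with the control and WARS1, HARS1 and FARSB right of 0, while MARS1, VARS1, SLC6A9 and PSPH spread to both sides in at least 1 comparison.

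The probe sets show how far a sign can be read. The members had 109 probe sets, of which 98 were above the filter. Of the 28 members with more than 1 such probe set, 18 had all of them on the same side with delta72 against the control, 22 with WT against the control and 14 between the forms. So in 14 of 28 members the probe sets did not share a direction between delta72 and WT. The pooled SD between probe sets of a gene, over 7163 genes, was 0.15, 0.17 and 0.11 in these comparisons, and it includes no error between cultures.

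Members with and without the element TGATGNAA overlapped in their differences. With delta72 the 12 members with the element had a median of 0.01 and ran from -0.27 (SLC1A5) to 0.21 (AARS1), and the 14 members with a window but no element had a median of 0.0032 and ran from -0.40 (SLC7A5) to 0.32 (WARS1). With WT the medians were -0.02 and 0.0032. Between the forms they were 0.03 and -0.02, with 10 of 12 and 6 of 14 members higher with delta72. Of all genes above the filter, 50.4% were. IARS1 (0.0004), TARS1 (0.0013) and NARS1 (0.0028), which hold the element, were near 0. The medians over their probe sets above the filter were -0.041, -0.048 and -0.0727. Among members without the element, KARS1 (-0.0067) and SLC38A2 (-0.073) had such medians above 0, at 0.0014 and 0.2724.

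Of 23 genes above the filter in the list of ATF4 regulators and targets, 7 were higher by at least 0.32 with delta72 and 0 lower (median 0.15). With WT, 4 were higher by that size and 2 lower (median 0.11). Between the forms 5 were higher with delta72 by that size and 0 lower (median 0.08). Of all genes above the filter, 7.52% were higher and 4.72% lower by that size with delta72, and 9.92% and 7.12% with WT. Between the forms these shares were 1.55% and 0.981%. DDIT3, which encodes CHOP, read 8.98 with delta72, 8.36 with WT and 7.33 in the control, or 1.65 and 1.03 above the control. ATF3, a stress-induced factor, was at 0.69 and 0.47, PPP1R15A, the phosphatase subunit that reverses eIF2 phosphorylation, at 0.64 and 0.29, and SESN2, a leucine-sensing inhibitor of mTORC1, at 0.56 and 0.27. DDIT4 (-0.17 and -0.66) and VLDLR (-0.05 and -0.53) were lower with WT and higher with delta72 than with WT, by 0.49 and 0.48. DDIT4, VLDLR and PPP1R15A had 1 probe set each, and VLDLR read 6.70 with delta72, 6.22 with WT and 6.75 in the control. ATF4 itself, named after its values were seen, read 12.14, 12.13 and 11.99, or 0.15 higher with either form. Its activity is set largely by translation, which these arrays do not measure.

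The amino acid enzymes outside the members lay on the lower side. Of 13 measured above the filter, 11 were lower than the control with delta72 and 11 with WT, with medians of -0.13 and -0.18. So 15.4% were higher in each comparison, against 49.7% and 48.0% of all genes above the filter. At a size of 0.32, 2 were lower with delta72 and 4 with WT, and 0 were higher in either. Of all genes above the filter, 4.72% and 7.12% were lower by that size, and 7.52% and 9.92% higher. PHGDH, the first enzyme of serine synthesis, read 8.44 with delta72, 8.33 with WT and 8.85 in the control, or -0.41 and -0.52. PSAT1, the next enzyme of that path, was at -0.26 and -0.38, ASNS, the asparagine synthetase, at -0.26 and -0.43, and ASS1, which makes argininosuccinate, at -0.36 and -0.52. So PHGDH, PSAT1, ASNS and ASS1 were all nearer to the control with delta72 than with WT, by 0.11 to 0.17. They were named for the widest differences from the control in this list, and the same WT array enters both comparisons. Over the list, 8 of 13 were higher with delta72 than with WT (61.5%, against 50.4% of all genes above the filter). GLUL had the widest difference between the forms and went the other way, at -0.22.

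Other carriers and the mitochondrial synthetases were mixed. Of 13 further amino acid transporters above the filter, 3 were higher by at least 0.32 with delta72 (SLC38A5 at 0.45, SLC36A1 at 0.34 and SLC36A4 at 0.33). With WT 3 were higher (SLC36A1 at 0.47, SLC38A7 at 0.44 and SLC38A5 at 0.39), and SLC7A11, the cystine importer, was lower at -0.40. SLC7A11 was at -0.24 with delta72. Of all genes above the filter, 7.52% were higher by at least 0.32 with delta72 and 9.92% with WT, and 7.12% were lower with WT. The 16 mitochondrial synthetases had medians of -0.04 with delta72 and -0.0005 with WT. MARS2, which charges mitochondrial methionine tRNA, had the widest difference of that list in both comparisons with the control, at 8.16 with delta72, 8.25 with WT and 7.45 in the control, or 0.71 and 0.80. Among the cytosolic genes outside the members, TARS3, a threonyl-tRNA synthetase related to TARS1, was at 0.45 and 0.40. It read low, at 6.36 with delta72, 6.31 with WT and 5.91 in the control on the brightest of its 3 probe sets. AIMP1, a scaffold of the multisynthetase complex, was at 0.11 and 0.20. The promoter element was present in 5 of 21 genes of the ATF4 list with a window (23.8%) and 4 of 15 further amino acid enzymes (26.7%). It was present in 1 of 14 further transporters (7.14%) and 1 of 14 mitochondrial synthetases (7.14%). Of genes above the filter with a window 2.90% held it, and of all genes with a window 4.46%. As for the members, a high share in lists chosen around the ATF4 pathway could be foreseen and is not an independent finding.

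**Figure D5:**
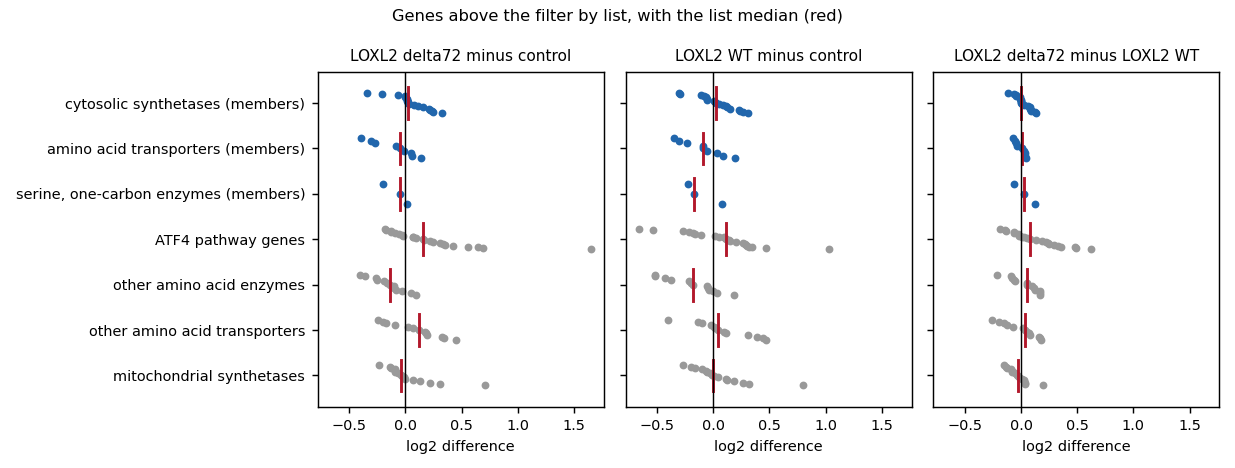
Log2 differences of the genes above the filter by list in the 3 comparisons, with members in blue, other lists in grey and each list's median as a red bar. The medians of the member synthetases and member transporters lie within 0.10 of 0 in every comparison, and DDIT3 is the grey point at 1.65 with delta72.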

How the data were processed

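The authors deposited 1 table of log2 intensities for 49395 probe sets on 3 arrays, and the unit was read from the values, which lie between 2.07 and 14.56. The labels' protocols give 100 ng of total RNA, amplified and biotin-labelled for Affymetrix 3′ arrays. Partek and Affymetrix Expression Console are named in the submitters' processing notes, while how probes were summarised, corrected and scaled is not stated there. Array medians were 5.94 with delta72, 5.93 with WT and 5.95 in the control.

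After leaving out 102 control probe sets, 44988 probe sets had 1 gene symbol. The brightest of these, by mean over 3 arrays, stood for the gene. Genes below the 40th percentile of means over all other than control probe sets (log2 5.27) were left out. Differences were taken as deposited, with Python 3.11.15, numpy 2.4.6 and pandas 2.3.3, and counted at a log2 size of 0.32 and at 1.5-fold. The number of arrays limits the precision, and no test was made. The counting was tested on simulated data at 1.5-fold only, with known differences beyond that size. That says nothing about the counts at 0.32. The members and all lists were chosen with earlier results of these data known, and genes outside the members are named where they were among the 4 with the largest difference of their list. Some listed genes are not reported here. Alternatives were 3 scalings, another probe set choice and 2 other filters. An alternative without probe sets of the suffix x or s, which can match other transcripts, was added after seeing the data.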

Additional observations from a re-analysis of the deposited data

How the results depend on the processing

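No paired analysis was possible because each condition had 1 array, and no replicate could be left out. Shifting each array to a common median level over the genes above the filter, which moves all genes alike, gave these genes median differences of -0.0327 with delta72 and -0.0507 with WT against the control. The members' medians then became -0.02 and -0.0303, with 11 members higher with delta72, 0 higher by at least 0.32 with delta72 and 4 lower by at least 0.32 with WT. Under quantile normalization and under a lowess correction for intensity, 0 members were higher by at least 0.32 with delta72 and 2 lower by that size with WT. WARS1, at 0.29 to 0.30 under these 3 scalings, was the member no longer past the mark. Taking the median of the differences of all probe sets per gene, 2 members were higher by at least 0.32 with delta72 (WARS1 at 0.38 and SLC7A6 at 0.34), 1 was higher with WT (SLC7A6, at 0.45) and 3 were lower with WT. Without probe sets of the suffix x or s, 3 of 29 members were lower by at least 0.32 with WT. The other counts stayed within 1.5 times of those given, though not always by the same genes. With the median over probe sets, EPRS1 with delta72 was at -0.29 and no longer past the mark, while SLC1A5 was past it at -0.33. EPRS1, SLC7A5 and WARS1 kept their sign in the comparisons with the control under every alternative run. Of the single members' values, 7 of 93 moved by more than the pooled probe SD with the median over probe sets and 2 of 87 without the suffixes, and 0 did so under the scalings and filters. The scalings turned the sign of single differences of 0.03 or less, in IARS1, SARS1 and PSPH among others. Other alternatives turned larger ones. The median over probe sets moved PSPH with WT from 0.08 to -0.17 and SLC38A2 between the forms from -0.07 to 0.27. Without the suffixes, MARS1 with WT went from -0.06 to 0.06 and SLC38A1 with delta72 from 0.14 to -0.0067.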
